A study of Coryphaena hippurus with 27 samples.

Results

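Mahi-mahi (Coryphaena hippurus) animals held in slick oil and in source oil of the Deepwater Horizon spill were compared directly at 48 hours post fertilisation (hpf). Small RNA of whole animals was sequenced. The comparison used 6 of the 27 libraries of the series, 3 from slick oil and 3 from source oil, with the 3 control libraries of the same stage beside them. Libraries were assigned by their labels, and the slick and source columns were joined on the miRNA names that both deposited count tables hold with equal control counts. Of 1103 names in both tables, 1075 had equal control counts and 637 passed the filter on low counts. Both oils were given at a labelled concentration of 1 g/l and the controls at 0 g/l. Each oil was added to filtered seawater as a HEWAF, the suspension obtained by blending oil into water at high energy. As background, slick oil had weathered at the sea surface, whereas source oil came from the well without that weathering. All groups shared a wild-caught broodstock that spawned without induction, exposure of newly fertilised embryos in beakers without renewal of the water, and pools of 30 animals per library. Nothing in the labels ties a replicate to a spawn or a day, so p-values concern these pools alone. Because replicate pools of the oils varied less than Poisson counting noise, p-values were bounded by that noise and do not measure the spread between pools alone.

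MicroRNAs (miRNAs) are short RNAs that pair with messenger RNAs and lower their translation or stability, and many vertebrate miRNAs are made mainly in one tissue. In a whole fish embryo the level of such a miRNA follows both the amount of that tissue and the amount of the miRNA per cell, which cannot be told apart in these libraries. A miRNA hairpin gives a 5p and a 3p strand, and a sequence found in many species is often deposited under several names, so names that share a number share counts in part.

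Deposited counts summed to 66553 to 68047 in the slick libraries, 71553 to 74949 in the source libraries and 64295 to 80402 in the controls. Every slick total lay below every source total, and fewer names were detected under slick oil (920, 932 and 948) than under source oil (973, 968 and 974); their part in the differences below was not tested. Replicate libraries agreed closely: the 6 pairs of replicates within the oil groups had a chi-square divided by its degrees of freedom of 0.481 to 0.743, where independently drawn reads give about 1. Control replicates 4 and 5 also differed by less than sampling noise (0.514) while replicates 4 and 6 differed by more (1.20), so control values are given per library. With replicates 4 and 5 counted as 1 sample, 36 names differed between the oils, beside 35 with the libraries kept apart. The titles of the slick and control libraries begin with G004 and those of the source libraries with G005; what this prefix marks is not stated, and it cannot be told apart from the oil. Markers of the tissues of a whole embryo were detected in all 6 oil libraries, among them the muscle miRNA miR-206 (597 to 661 raw counts), the liver miRNA miR-122-5p (183 to 234) and the red blood cell miRNA miR-451 (8 to 17).

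Names of miR-204, miR-130, miR-92 and miR-181 were higher under slick oil than under source oil, and those of miR-144 were lower. Of the 637 names, 35 (5.49%) differed at an adjusted p under 0.05 by edgeR's quasi-likelihood test with Benjamini-Hochberg adjustment. The 31 higher under slick oil (4.87% of names) came from 10 miRNA numbers: miR-204, miR-211, miR-182, miR-130, miR-92, miR-181, miR-10, miR-125, miR-365 and miR-734. The 4 lower under slick oil (0.628%) came from miR-144 and let-7b. Differences were small, at 1.15- to 2.31-fold for the higher names and 1.48- to 1.99-fold for the lower ones, and the median log2 fold change of all names was -0.01. Of all 637 fold changes 292 were positive. The 3 slick values did not overlap the 3 source values in 209 names (32.8%), among them 29 of the 31 higher names and 2 of the 4 lower ones.

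The choice of scaling moved the balance of the calls. With TMM 31 names were higher and 4 lower, and after cyclic loess, a scaling that evens fold changes over the range of counts, 27 were higher and 8 lower, with 28 of the 35 names shared. In the TMM values the 111 names with a mean normalised count of 200 or more had a median log2 fold change of 0.06 and held 12 of the higher calls. DESeq2, which gave an adjusted p for 403 names, called 15, 13 higher and 2 lower. The count was 20 to 29 when one oil library was left out: 23 without slick replicate 4, 26 without slick replicate 5, 23 without slick replicate 6, 28 without source replicate 4, 29 without source replicate 5 and 20 without source replicate 6. With library size as the only scaling it was 22. A set of 15 names from miR-204, miR-211, miR-130, miR-92, miR-181 and miR-144 passed under every alternative that gave the name an adjusted p.

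**Figure D1:**
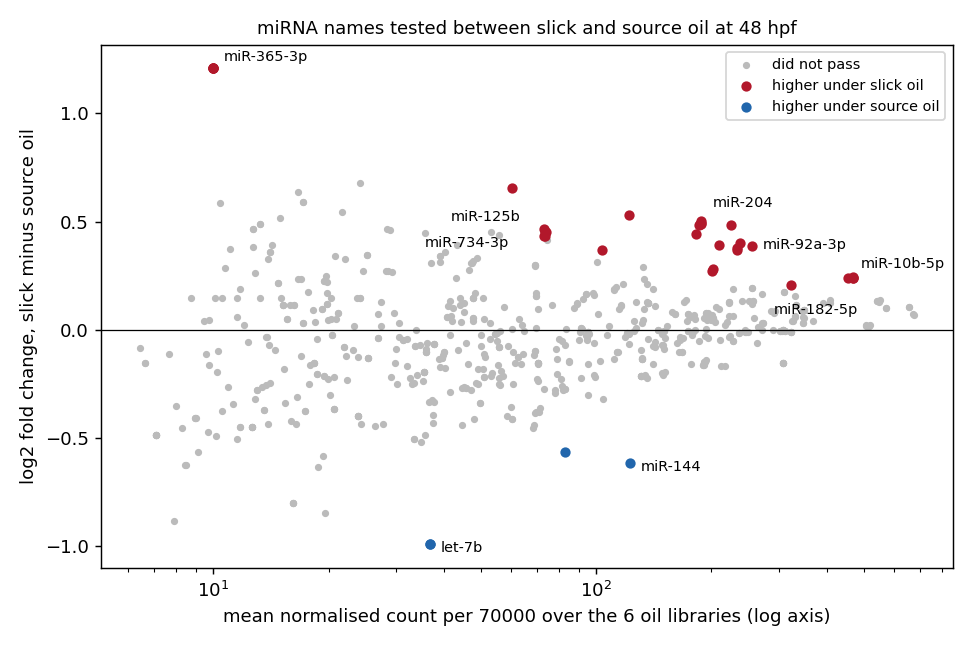
Log2 fold change of slick against source oil at 48 hpf for each of the 637 miRNA names tested, against the mean normalised count per 70000 over the 6 oil libraries on a log axis. Red names were higher and blue names lower under slick oil at an adjusted p under 0.05, and grey names did not pass; most names lie near 0 and the passing ones include log2 fold changes as small as 0.21 only where counts are high.

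miR-144, which with miR-451 is made in one transcript in developing red blood cells, was lower under slick oil. Its normalised counts, each per 70000 counts of a library, were 92.6, 96.9 and 101 in the slick libraries and 156, 144 and 145 in the source libraries. In the controls they were 219, 230.1 and 188, so the 3 groups did not overlap and slick oil stood farthest from the controls. The group means were 96.7 ± 4.02 (SD, n = 3) and 148 ± 6.66, a log2 fold change of -0.62 ± 0.11 (SE; adjusted p = 4.02e-06 by edgeR's quasi-likelihood test), a 1.53-fold difference. The name miR-144-5p showed the same order, with 65.0, 68.6 and 67.1 under slick oil against 106, 98.2 and 93.1 under source oil (log2 fold change -0.56 ± 0.13, adjusted p = 8.62e-04 by the same test). Since the name miR-144 bears no strand label and may share counts with miR-144-5p, they are not taken as separate measurements. Against the controls miR-144 was lower under both oils, by -1.15 ± 0.10 under slick oil and -0.53 ± 0.09 under source oil, 2 values that share the control libraries.

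The other red blood cell names had few counts. miR-451, which matures by the slicer activity of Argonaute and promotes red cell maturation, had 8.82, 14.2 and 8.95 under slick oil and 16.1, 11.1 and 16.5 under source oil, and these overlapped. Its log2 fold change of -0.45 ± 0.34 did not pass (adjusted p = 0.544), with a 95% interval of -1.11 to 0.21. The name miR-144-3p did not pass either, at -0.57 ± 0.41. Of the 7 red blood cell names tested, of 8 joined, 2 were lower, beside 0.628% of all names, and none higher. All 7 had negative fold changes. The 7 names hold 4 distinct rows of counts, since miR-451 appears under 4 names, so their median of -0.45, beside -0.01 for all names, is the value of miR-451. The mean normalised count per name of this list was 29.1 to 32.7 in the slick libraries and 42.4 to 47.7 in the source libraries, against 51.1 to 69.1 in the controls.

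**Figure D2:**
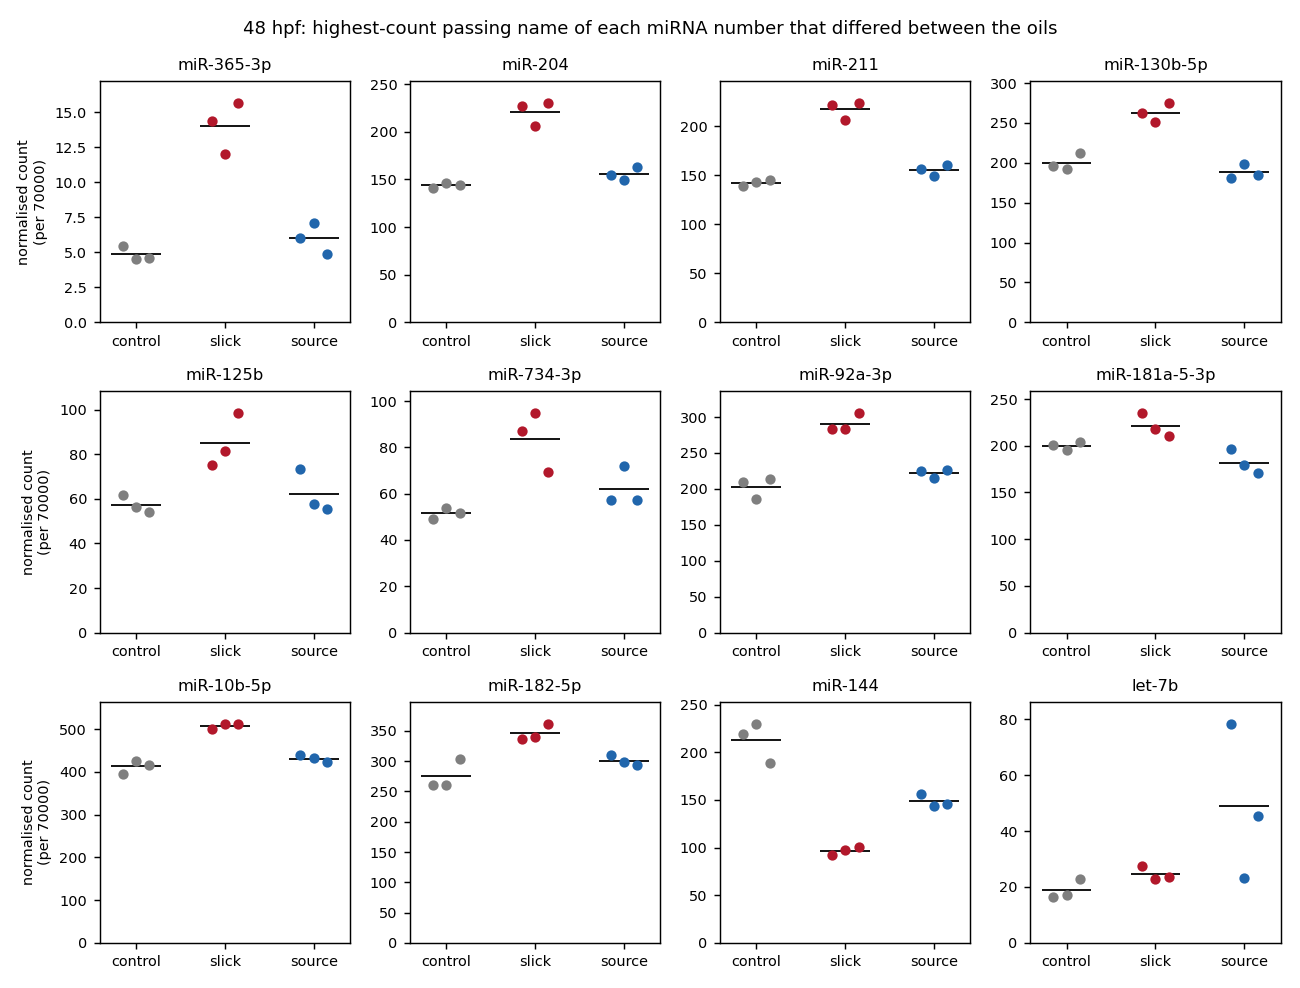
Normalised counts per 70000 at 48 hpf for 12 miRNA numbers, each shown by the highest-count name among those of its number that passed between the oils; each point is a library, the horizontal bar is the group mean and each vertical axis starts at 0. In every panel but miR-144 and let-7b the 3 slick libraries have the highest mean, in miR-144 they are the lowest, and in let-7b the spread lies among the source libraries.

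White blood cell miRNAs did not follow with a call. None of the 10 names tested, of 24 joined, passed, and their median log2 fold change was -0.24. miR-142-3p, a miRNA of blood cells, had 18.7, 20.7 and 14.5 under slick oil and 25.2, 24.3 and 20.4 under source oil, against 74.7, 67.3 and 32.1 in the controls. It lay below the controls in all 6 oil libraries, and the oils themselves overlapped (-0.36, 95% interval -0.96 to 0.23, adjusted p = 0.597).

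Among 19 eye and sensory organ names tested, 6 were higher under slick oil, beside 31 of all 637 names (4.87%). miR-204, abundant in the pigmented epithelium and lens of the eye, had normalised counts of 227, 206 and 230.3 under slick oil and 155, 149.8 and 163 under source oil. The controls had 141, 146 and 145, so the source libraries lay slightly above the controls and the slick libraries above both. The means were 221 ± 13.3 and 156 ± 6.54 (SD, n = 3), a 1.42-fold difference (log2 fold change 0.50 ± 0.09, adjusted p = 4.02e-06 by edgeR's quasi-likelihood test). miR-211, encoded in a melanocyte gene in mammals and sharing its seed with miR-204, gave 222, 206 and 224 against 156, 149 and 159.9 (0.48 ± 0.09, adjusted p = 4.60e-06). The names miR-204a-5p, miR-204b and miR-204a passed too, and since they and miR-211 have nearly the counts of miR-204 in every library they are not separate measurements. The opposite strand, miR-204-3p, was at 0.22 ± 0.27 and did not pass.

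miR-182-5p, of the miR-183 cluster of photoreceptors and hair cells, was higher under slick oil by a smaller step. It had 337, 341 and 362 under slick oil and 310.0, 299 and 294 under source oil (0.21 ± 0.07, adjusted p = 0.0412). When one oil library was left out this call was kept only without source replicate 4, and its adjusted p reached 0.533 over the alternatives. miR-184, expressed in lens and cornea, did not pass at 0.18 ± 0.07 (adjusted p = 0.108), although its 321, 339.7 and 326 did not overlap the 296, 282 and 295 of source oil. Of the 24 joined names of this list 19 were tested and none was lower. Of the 19 fold changes 16 were positive, beside 292 of 637 over all names, and the median was 0.18. The list holds 6 miRNA numbers, and several of its names are nearly alike in counts, so they are not all separate measurements.

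Among the 3 miR-130 names written as 5p, 2 separated the oils as well. As background, the 3p strand of this family shares a seed with miR-301 and miR-454 and is known in mammals from vessel growth. That does not describe the 5p names. miR-130b-5p had 262, 252 and 275 under slick oil and 181, 198 and 184 under source oil, with controls of 196, 193 and 212. The slick libraries lay above both other groups, which overlapped. The means of 263 ± 11.8 and 188 ± 9.22 (SD, n = 3) gave a log2 fold change of 0.48 ± 0.08, with an adjusted p of 1.28e-06 (edgeR's quasi-likelihood test), the smallest of the 637 names. miR-130a-5p followed with 214, 201 and 217 against 150.0, 160.0 and 155 (0.44 ± 0.09). The third 5p name, miR-130c-5p, did not pass at 0.12, with raw counts of 74, 89 and 90 under slick oil and 73, 96 and 88 under source oil. The 4 names written as 3p lay between -0.22 and 0.11 and none passed, and miR-454-5p, at 0.55 ± 0.26, did not pass (adjusted p = 0.247). Over the family 2 of 23 names were higher, beside 4.87% of all names, with a median of 0.11.

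miR-92 was the only number of the miR-17-92 clusters to pass. These clusters promote cell proliferation, and miR-92a limits blood vessel growth in mice. miR-92a-3p had 283, 283 and 305 under slick oil, 224, 215 and 226 under source oil and 209.5, 186 and 213 in the controls. Every slick library lay above every other library, and the oils differed by 0.39 ± 0.08 (adjusted p = 2.08e-05). miR-92c, with fewer counts, differed more, at 71.7, 67.5 and 82.7 against 45.3, 45.6 and 49.4 (0.66 ± 0.16, adjusted p = 8.62e-04). All 9 miR-92 names had positive fold changes, beside 292 of all 637, and 6 passed, where 4.87% of all names were higher. Several of the 6 have nearly the same counts in every library, so they are not all separate measurements. miR-92d-3p (0.68 ± 0.25, adjusted p = 0.0956) and miR-92b-3p (0.29 ± 0.10, adjusted p = 0.0911) missed the threshold. Elsewhere in these clusters miR-19a had the opposite sign and did not pass (-0.41 ± 0.16). Over the 50 names tested, of 78 joined, 6 were higher, none lower, and the median was -0.005. miR-92c did not pass with DESeq2 (adjusted p = 0.0894).

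For miR-181 the calls lay on one strand. As background, this family is known from lymphocyte and neural development, which is not taken here to describe the 3p names. miR-181a-3p had 155, 143 and 135 under slick oil and 107, 100.2 and 93.1 under source oil, with 102, 114 and 106 in the controls. The slick values were above both other groups, which overlapped (0.53 ± 0.11 between the oils, adjusted p = 7.39e-05). The names miR-181a-5-3p, miR-181a-2-3p and miR-181a-1-3p also passed, at 0.28 ± 0.09, 0.27 ± 0.09 and 0.37 ± 0.12. miR-181a-5-3p and miR-181a-2-3p did not pass without slick replicate 4 (adjusted p = 0.180 and 0.232), source replicate 5 (0.0624 and 0.0850) or source replicate 6 (0.208 and 0.223), and miR-181a-1-3p passed only without source replicate 4. The opposite strand, miR-181a-5p, had 357, 351 and 362 against 342, 344 and 345, a difference of 0.05 ± 0.06 that did not pass. Of 6 names written as 3p 4 were higher, beside 4.87% of all names, and of 4 written as 5p none was. Among the 4, miR-181a-5-3p and miR-181a-2-3p have nearly the same counts and are not separate measurements.

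miR-10 and miR-125 are further miRNAs of body patterning and developmental timing. miR-10b-5p, encoded within the Hox clusters that pattern the body axis, had 499, 513 and 513 under slick oil and 439, 432 and 423 under source oil, with controls of 396, 426.5 and 416.5. The slick libraries were highest and the step was small (0.24 ± 0.06, adjusted p = 7.31e-04). miR-10a-5p, miR-10b and miR-10c-5p also passed at 0.24. They have nearly the counts of miR-10b-5p in every library, so the 4 names are not separate measurements. Counted as names, 4 of the 22 Hox cluster names tested were higher, beside 4.87% of all names, and none lower, with a median of 0.08. None of the 4 passed with DESeq2 or after cyclic loess, where the adjusted p reached 0.122, and without source replicate 6 miR-10b-5p was at 0.0582. miR-125b, a relative of worm lin-4, had 75.0, 81.7 and 98.4 under slick oil and 73.5, 57.7 and 55.3 under source oil. The lowest slick and the highest source library lay close together (0.45 ± 0.14, adjusted p = 0.0341), and the call was lost without slick replicate 5 or 6 (adjusted p = 0.0691 and 0.299) or source replicate 5 or 6 (0.133 and 0.208). The name miR-125b-5p went the other way by a small step (log2 fold change -0.10) and did not pass. Its raw counts were 96, 96 and 106 under slick oil and 129, 113 and 112 under source oil. These are not scaled for the smaller totals of the slick libraries. The 3 miR-125 names written as 5p had a median log2 fold change of -0.10, and 1 of them passed. Of the 23 names of miR-99, miR-100 and miR-125, 4 were higher, all miR-125, none was lower, and the median was 0.16. The 4 passing names have nearly the same counts in every library and are not separate measurements.

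The largest fold among the higher names, 2.31, was that of miR-365-3p, a miRNA of brown fat in mammals, and it rested on few counts. Raw counts were 13, 11 and 14 under slick oil and 6, 7 and 5 under source oil, or 14.3, 12 and 15.7 against 6.04, 7.09 and 4.85 after scaling. The groups did not overlap, and the source values lay near the controls (log2 fold change 1.21 ± 0.39, 95% interval 0.44 to 1.98, adjusted p = 0.0410). Its 4 passing names carry one and the same row of counts, and among the 6 left-out libraries it passed only without slick replicate 5. Without the other 5 its adjusted p was 0.0543 to 0.198. The opposite strand, listed as miR-365 and miR-365-5p, was raised against controls under both oils, at 41.9, 52.3 and 36.9 under slick oil and 36.2, 39.5 and 28.1 under source oil against 16.4, 15.5 and 13.8, and did not pass between them (0.34 ± 0.19, adjusted p = 0.355). miR-734-3p, described in fish, had 87.1, 94.7 and 69.3 against 57.4, 71.9 and 57.2, which overlapped (0.43 ± 0.14, adjusted p = 0.0412), and it passed only without slick replicate 6 or source replicate 5 among the 6 left-out libraries.

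let-7b was lower under slick oil by way of 2 source libraries. This member of the let-7 family, which promotes differentiation late in development, had 27.6, 22.9 and 23.5 under slick oil and 78.5, 23.3 and 45.6 under source oil. Source replicate 5 lay among the slick libraries and source replicate 4 was the highest of the 9 libraries, so the groups overlapped (-0.99 ± 0.27, adjusted p = 0.0217). let-7e (29.2, 11.1 and 21.3 under source oil), let-7i (102, 57.7 and 78.5) and miR-146a-3p (41.3, 12.2 and 22.3), a strand of a miRNA of inflammation, had the same order of source libraries and did not pass. let-7a-5p stayed between 97.2 and 108 in all 6 oil libraries (0.07 ± 0.12). Of 23 let-7 names tested, of 39 joined, 2 were lower, beside 0.628% of all names, and none higher, and the median was -0.28. The 2, let-7b and let-7b-5p, carry the same row of counts. let-7b did not pass in the fit of all 27 libraries (adjusted p = 0.0750), without slick replicate 4, 5 or 6 (0.0809, 0.229 and 0.0953) or without source replicate 4 (-0.48, adjusted p = 0.322), and DESeq2 gave it no adjusted p.

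**Figure D3:**
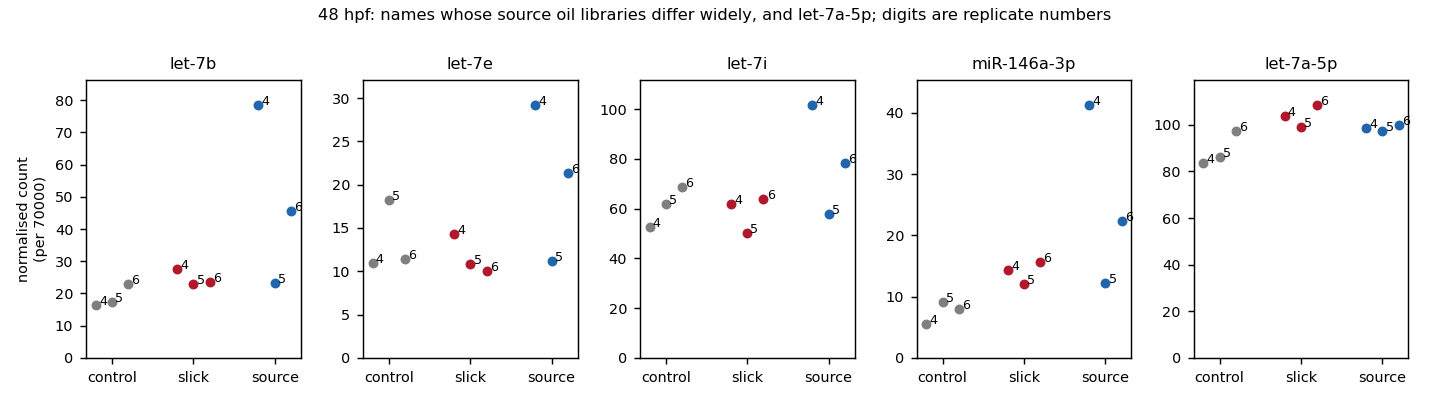
Normalised counts per 70000 at 48 hpf of let-7b, let-7e, let-7i, miR-146a-3p and let-7a-5p, with each point a library and the digit its replicate number. In the first 4 panels source replicate 4 is highest and source replicate 5 lies among the slick libraries, whereas let-7a-5p is alike in the 6 oil libraries.

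In the muscle list none of 34 names passed, 13 had positive fold changes and the median was -0.14. Slick and source values did not overlap in 29 of the 34, beside 32.8% of all names. The list holds 28 distinct rows of counts from 4 miRNA numbers, many of them nearly alike, so its names are not separate measurements. Within it miR-206, which drives muscle differentiation, had 662, 672 and 709 under slick oil against 601, 657 and 641 (0.11 ± 0.05), and miR-133d-5p, of a family that favours myoblast growth, had 66.1, 61.0 and 53.7 against 77.5, 78.0 and 80.5 (-0.38 ± 0.15, adjusted p = 0.105). The 74 neuron and brain names had a median of -0.01, with miR-9-3p, of neural progenitors, at 0.14 ± 0.05 (adjusted p = 0.101) and the neuronal miR-124 at 0.05 ± 0.17. All 9 glial miR-219 names had negative fold changes and none passed, with miR-219-5p, which promotes oligodendrocyte differentiation, at -0.43 ± 0.20 (adjusted p = 0.225). These names belong to 1 miRNA number and share counts in part, and over all names 292 of 637 fold changes were positive. The pancreas, liver and gut, vessel, skin, skeleton, miR-430, miR-15 and miR-16, p53, and hypoxia lists had no call, with medians from -0.19 to 0.17. After cyclic loess 7 names of the vessel and hypoxia lists passed in addition: miR-222, miR-222-3p, miR-222a and miR-222a-3p were lower (-0.23 ± 0.07, adjusted p = 0.0201), miR-23a and miR-23a-3p were higher (0.51 ± 0.16 and 0.53 ± 0.17, adjusted p = 0.0299 and 0.0295), and miR-462 was higher (0.48 ± 0.14, adjusted p = 0.0165). Among hypoxia-linked names miR-462, induced by hypoxia in zebrafish, had 86.0, 83.8 and 85.0 under slick oil and 59.4, 60.7 and 70.8 under source oil with TMM (0.41 ± 0.14, adjusted p = 0.0564), while miR-210, induced by hypoxia in mammals, had the opposite sign (-0.41 ± 0.17, adjusted p = 0.168).

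**Figure D4:**
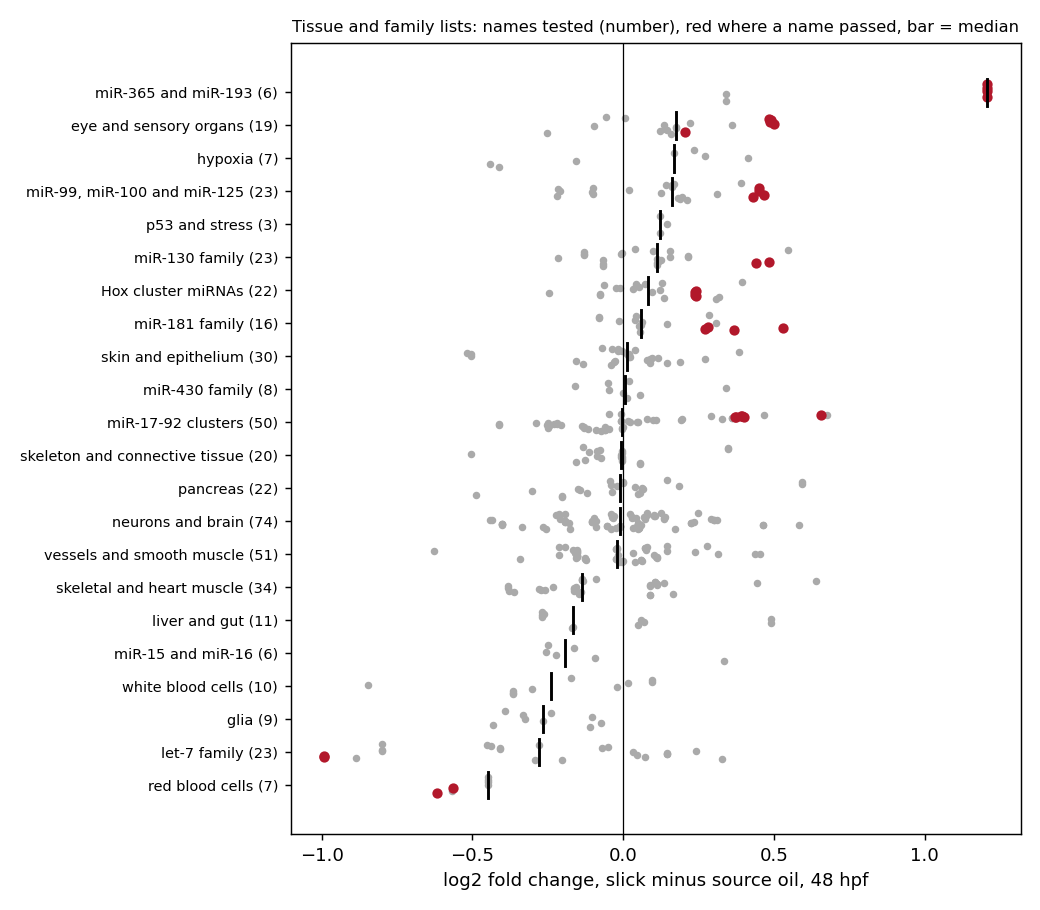
Log2 fold change of slick against source oil at 48 hpf for every tested name of 22 tissue and family lists; each point is a name, red points passed at an adjusted p under 0.05, the vertical black bar is the median of the list and the number tested stands in brackets. The red blood cell and let-7 lists lie lowest, with 2 lower names each, and 7 lists have passing names to the right of 0.

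Set against the controls, most names that separated the oils had passed under slick oil and not under source oil. Slick oil differed from the controls in 250 names (39.2%; 123 higher, 19.3%, and 127 lower, 19.9%) and source oil in 123 (19.3%; 58 higher, 9.11%, and 65 lower, 10.2%); both comparisons share the controls and their libraries with the comparison of the oils. Of the 31 names higher under slick oil, 29 were also higher than the controls under slick oil and 4, all miR-92, under source oil. The 31 were chosen for slick values above source values in these same libraries, which favours such a tally. The miR-144 names passed as lower under both oils. let-7b passed against the controls under source oil (1.40 ± 0.28) and did not under slick oil (0.40 ± 0.34). DESeq2 called 113 and 39 names in these comparisons, and with control replicates 4 and 5 counted as 1 sample the numbers were 194 and 72. The source oil count also fell to 71 and 70 without control replicate 4 or 5, and to 81 without source replicate 4.

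Several miRNAs whose mean levels lay away from the controls under both oils did not separate the oils. miR-7641 had 67.2, 70.8 and 86.1 under slick oil and 86.6, 99.2 and 76.6 under source oil, against 11.8, 16.4 and 5.74 in the controls (-0.23 between the oils, 95% interval -0.49 to 0.04, adjusted p = 0.383). miR-216a, of the exocrine pancreas, had 30.9, 30.5 and 27.9 and 37.2, 47.6 and 40.7, against 102, 99.1 and 73.4. Its slick libraries were all below its source libraries, yet the difference did not pass (-0.49, 95% interval -0.89 to -0.09, adjusted p = 0.153). Names of this number did not all fall below the controls. Raw counts of miR-216a-5p were 166, 168 and 168 under slick oil and 177, 186 and 174 under source oil, against 177, 186 and 146. Those of miR-216 were 13, 17 and 17 and 20, 23 and 17, against 58, 45 and 31. miR-34a-5p, which p53 induces, had few counts. Its raw control counts were 15, 9 and 6, and source replicate 4, at 14, lay close to the highest of them. Between the oils it overlapped, at 26.4, 17.4 and 20.1 and 14.1, 28.4 and 15.5 (0.15, 95% interval -0.38 to 0.67). These intervals leave room for differences as large as those of the names that passed.

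Separate libraries of 24 and 96 hpf gave the same contrast in other pools. At 24 hpf 7 of 603 names passed (1.16%), all higher under slick oil: the miR-204 names, miR-211, miR-206-5p and miR-462. At 96 hpf 29 of 669 passed (4.33%), 13 higher (1.94%) and 16 lower (2.39%). Of the 31 names higher at 48 hpf, 29 were tested at 24 hpf, where 28 had positive fold changes, 5 passed and the median was 0.27, beside 0.02 for all names. The 5 were the miR-204 names and miR-211, which are not separate measurements. At 96 hpf 30 of the 31 were tested, 29 were positive, 8 passed and the median was 0.28, beside 0.01 for all names. The 31 names come from 10 miRNA numbers, with miR-204 and miR-211 nearly alike in counts, and share counts in part, so neither tally is one of independent names. With DESeq2, with agreeing replicates averaged, or without slick replicate 1 or 2 or source replicate 1 or 3, no name passed at 24 hpf, and 11 did without slick replicate 3. At 96 hpf DESeq2 called 4 names, and 5 to 56 passed when a library was left out: 56 without slick replicate 7, 15 without slick replicate 8, 5 without slick replicate 9, 15 without source replicate 7 and 16 without source replicate 9.

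miR-204 stood above source oil at all 3 stages. At 24 hpf it had 281, 272.5 and 230.2 under slick oil against 186.5, 214.5 and 181.5 (0.43 ± 0.10, adjusted p = 0.0350), and at 96 hpf 205, 238 and 233 against 177, 187 and 183.5 (0.30 ± 0.08, adjusted p = 0.00413). miR-130b-5p passed at 96 hpf (0.39 ± 0.09, adjusted p = 0.00142) and not at 24 hpf (0.33 ± 0.12, adjusted p = 0.283). miR-144 had 43.3, 37.95 and 37.1 under slick oil at 96 hpf against 91.9, 74.4 and 90.5 under source oil. Its difference was then -1.11 ± 0.14 (adjusted p = 1.71e-09), and at 24 hpf, where it had only 10.6 to 31.3 in the 6 oil libraries, it did not pass (-0.85 ± 0.32, adjusted p = 0.267). let-7b was at 0.32 ± 0.15 at 96 hpf, with the other sign than at 48 hpf, and did not pass.

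No difference between the oils was shown to be particular to 48 hpf. In the fit of all 27 libraries the oil difference at 48 hpf departed from that at 24 hpf in 0 of 655 names (0%) by edgeR's quasi-likelihood test, with 54 at an unadjusted p under 0.05, and DESeq2 also called 0, with 18 unadjusted. Against 96 hpf the counts were 0 of 655 (0%) with 46 unadjusted and, by DESeq2, 0 with 16. Without source replicate 5, 3 names passed against 96 hpf: let-7b and let-7b-5p (-1.64 ± 0.34, adjusted p = 0.00836) and miR-146a-3p (-1.64 ± 0.36, adjusted p = 0.0150).

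**Figure D5:**
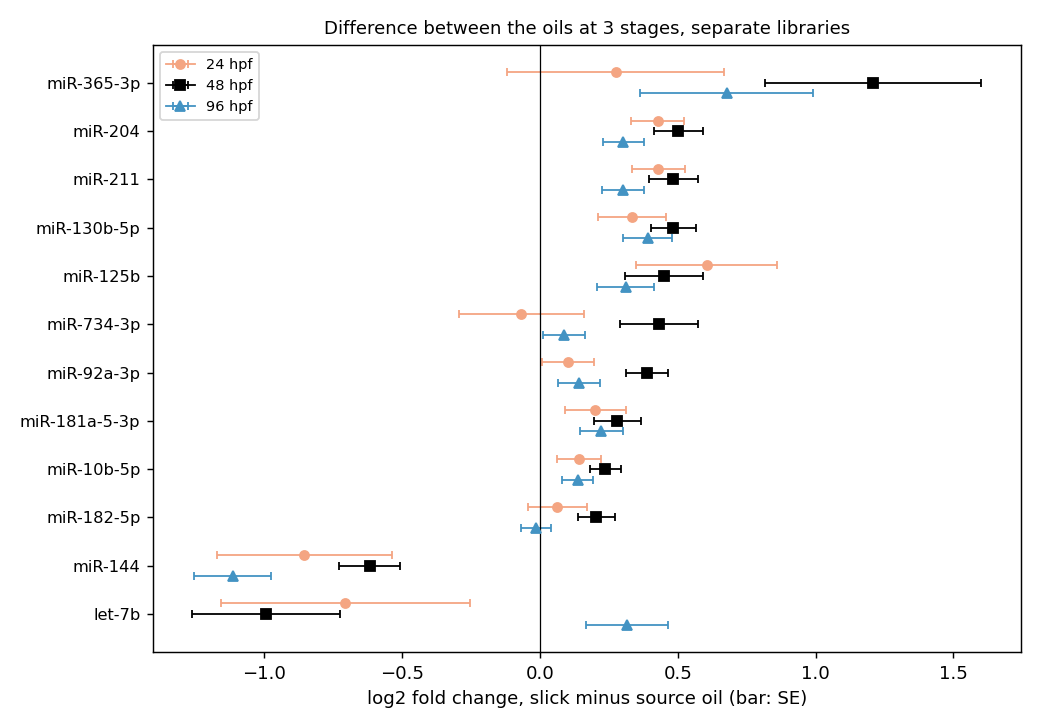
Log2 fold change of slick against source oil (bar: SE of the fit) at 24, 48 and 96 hpf for the highest-count name among those that passed at 48 hpf, 1 per miRNA number, each stage from its own 6 oil libraries. miR-204, miR-211 and miR-130b-5p lie above 0 and miR-144 below 0 at each stage, whereas let-7b is below 0 at 24 and 48 hpf and above 0 at 96 hpf.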

How the data were processed

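Small RNA libraries were made from pooled whole animals with the NEBNext Multiplex Small RNA kit, per the labels' protocols. Values are the authors' deposited counts, whole numbers for each miRNA name, with no scaling applied. The submitters' processing notes name DESeq2 without a version. How reads were aligned, to which miRNA reference, and how they were counted is not given in the sources used here. Values are called counts, not reads, and folds are folds of these counts. The highest single name held only 0.90% to 1.05% of the counts of each 48 hpf library. Whether a count is a read or a distinct sequence is not stated. Depth was 64295 to 80402 counts per library at 48 hpf.

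The 9 libraries of 48 hpf were fitted together in R 4.3.3 with edgeR 4.0.16 (filterByExpr with min.count of 10, TMM, two-sided quasi-likelihood F test, Benjamini-Hochberg adjustment over all names tested, threshold 0.05); controls entered the estimate of the spread. Because replicates varied less than Poisson counts, p-values were bounded by the Poisson likelihood ratio test, and each SE is the larger of those that both tests imply. Normalised counts are per 70000 and intervals are the estimate ± 1.96 SE. Stages 24 and 96 hpf were fitted alike, and differences between stages in 1 fit of 27 libraries. The fit was tested on simulated data drawn as independent Poisson counts. The oil replicates varied less than such counts and names share counts in part, so that test does not show how the fit behaves on these data. Alternatives were DESeq2 1.42.0, cyclic loess by limma 3.58.1, other scalings, filters and name sets, a replicate block and left-out libraries. Averaging of agreeing libraries, and blocks in comparisons other than that of the oils at 48 hpf, were added after the data were seen.

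The members, the lists and the naming rule were chosen with earlier results of these data known. The rule took, among passing names without overlap, the highest-count name per number and strand, then the smallest p in each list, and a panel, of which miR-219 and let-7a were not tested. Named outside it after values were seen were miR-92c, miR-92d-3p, miR-92b-3p, miR-19a, miR-125b-5p, miR-130c-5p, miR-181a-1-3p, miR-181a-5p, miR-10c-5p, miR-182-5p, miR-184, miR-204-3p, miR-204a, miR-206-5p, miR-222-3p, miR-222a, miR-222a-3p, miR-365-5p, miR-734-3p, let-7e and let-7a-5p.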

Additional observations from a re-analysis of the deposited data

How the results depend on the processing

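The count of 35 names that differed between slick and source oil at 48 hpf was 15 with DESeq2, 22 with library size as the only scaling, 19 in the fit of all 27 libraries, 6 of 123 when 1 name stood for each miRNA number (miR-10b-5p, miR-92a-3p, miR-130b-5p, miR-204, miR-211 and miR-144), and 20 to 29 when a library was left out, with 23 without slick replicate 4 or 6 and 20 without source replicate 6. It lay between 27 and 38 under the other scalings, filters and name sets. With replicate number as a block it was 38. Among the 6 single names, miR-204 and miR-211 have nearly the same counts and are not separate measurements. Deviations of same-numbered slick and source libraries correlated at -0.03, -0.01 and -5.46e-04, and those of same-numbered control and oil libraries at -0.08 to 0.12. Because the oil replicates varied less than counting noise, these values cannot show whether equal numbers mark a pair. Slick oil against control gave 250 names, 113 with DESeq2 and 187 to 260 with a library left out. Source oil against control gave 123 names, 39 with DESeq2, 72 with agreeing controls averaged and 70 to 128 with a library left out. The 7 names of 24 hpf became 0 with DESeq2, 0 with agreeing libraries averaged and 0 to 11 with a library left out. The 29 names of 96 hpf became 4 with DESeq2 and 5 to 56 with a library left out. The stage difference of 48 against 96 hpf ranged from 0 to 3 names with a library left out. For these counts the cause was not tested, beyond the smaller number of samples or names. Among single names under the alternatives that gave an adjusted p, 1286 values kept their side of the threshold, 78 no longer passed and 14 newly passed. Of names that passed in either fit, 0 reversed their sign. Sign changes of names that passed in neither fit were not counted apart and lie within the 1286. Of the names under a mean normalised count of 25, the single row of counts that passed, miR-365-3p under 4 names, had a log2 fold change of 1.21. The part of depth in this was not tested.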
